A study of Mus musculus with 96 samples.

Results

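The cytoplasmic actins Actb and Actg1 and 8 genes whose proteins bind actin (Tmsb4x, Tmsb10, Pfn1, Cfl1, Wdr1, Cnn2, Vcl and Flna) were followed in 2 brain regions of 48 mice, nucleus accumbens (NAc) and prefrontal cortex (PFC). These 10 genes, of 19918 in the deposited tables of raw counts, were listed by symbol with earlier results of the same libraries known, among them lower levels in XX than in XY mice. They were thus chosen by their measured log2 differences between XX and XY mice, and for that comparison their values are a description, without a test. Ensembl gene IDs were paired with symbols through the GENCODE M21 annotation of the mouse build GRCm38, which held 19795 of the 19918 IDs. All 10 genes were found and passed the filter on low counts in both regions.

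Polyadenylated RNA from tissue punches was sequenced in 96 libraries, 1 per animal and region. All mice were of the FCG model, in which the testis-determining gene Sry is absent from the Y chromosome (Y-) and an Sry transgene sits on an autosome, so that gonads do not follow the chromosomes. Genotypes were XX (ovaries), XXSry (transgene, testes), XY- (ovaries) and XY-Sry (transgene, testes), each as Control animals and as animals under Stress, a subchronic variable protocol of restraint with 3 sessions of 1 h on alternating days over 6 days. There were 5 Control and 6 Stress animals of XX, 6 and 6 of XXSry, 7 and 6 of XY-, and 6 and 6 of XY-Sry. Below, XX mice are the 23 animals of XX and XXSry together, and XY mice are the 25 animals of XY- and XY-Sry. A limit of the model bears on Tmsb4x: according to reports, the Y- chromosome holds a piece of X material, moved there by translocation, with a copy of this gene, so XX and XY mice differ there in more than the number of X chromosomes. The sources used here give neither age nor strain background, and the animals came from 3 cohorts.

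PFC libraries held between 67.6 and 104.4 M counts, and NAc libraries between 45.9 and 120.8 M. Levels are given as CPM (counts after scaling for depth), with library sizes corrected by the TMM method over all 96 libraries, and n counts animals. Markers of the labelled tissues were present: summed over 10 genes of striatal projection neurons, NAc libraries held 2113 to 6121 CPM and PFC libraries 207 to 337 CPM. Summed over 8 genes of cortical excitatory neurons, PFC libraries held 2048 to 2495 CPM, while NAc libraries spread from 74.3 to 1005 CPM.

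Actin is the protein of the thin filaments that give cells their shape. Single actin molecules (monomers) join into filaments, and filaments are cut and taken apart again, a cycle that neurons use in growth cones and in dendritic spines, the small protrusions that receive excitatory synapses. Thymosins (Tmsb4x, Tmsb10) bind monomers and hold them in reserve, and profilin 1 (Pfn1) delivers monomers to growing ends. Cofilin 1 (Cfl1) severs filaments, and the WD-repeat protein Wdr1 helps it. Calponin 2 (Cnn2) binds along filaments, vinculin (Vcl) couples them to adhesion sites, and filamin A (Flna) cross-links them and ties them to the membrane. Transcription of many of these genes is known to answer to the serum response factor SRF and its cofactors, the MRTF proteins, which sense the pool of free actin monomers.

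In GENCODE M21 on GRCm38 all 10 are protein-coding genes, and lengths used below are those of their annotated exons. The actins are Actb (ENSMUSG00000029580) at chr5:142903115-142906754 on the minus strand and Actg1 (ENSMUSG00000062825) at chr11:120345690-120348542 on the minus strand. The monomer binders are Tmsb4x (ENSMUSG00000049775) at chrX:167207093-167209315 on the minus strand, Tmsb10 (ENSMUSG00000079523) at chr6:72957347-72958748 on the minus strand and Pfn1 (ENSMUSG00000018293) at chr11:70651850-70654644 on the minus strand. The severing pair is Cfl1 (ENSMUSG00000056201) at chr19:5490455-5495201 on the plus strand and Wdr1 (ENSMUSG00000005103) at chr5:38526813-38563221 on the minus strand, and the calponin is Cnn2 (ENSMUSG00000004665) at chr10:79988584-79996062 on the plus strand. The linkers are Vcl (ENSMUSG00000021823) at chr14:20929398-21033676 on the plus strand and Flna (ENSMUSG00000031328) at chrX:74223461-74249820 on the minus strand.

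The coding sequences of each pair are set side by side, followed by the stretches that each member shares with any other gene. In the GENCODE M21 transcripts of GRCm38 the coding sequences of Actb and Actg1 are both 1125 bases long and identical at 88.6% of positions, and 120 of the 128 differences fall on the last base of a codon, 8 on the first and 0 on the middle base. Their first 90 bases are shown with the 16 differing bases in capitals.
Actb: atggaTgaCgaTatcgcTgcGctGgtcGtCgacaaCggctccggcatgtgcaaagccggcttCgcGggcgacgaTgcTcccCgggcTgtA
Actg1: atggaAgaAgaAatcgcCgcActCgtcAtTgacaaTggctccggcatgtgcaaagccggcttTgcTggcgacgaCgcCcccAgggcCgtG
The coding sequences of the thymosins are both 132 bases long and identical at 69.7% of positions, with 40 differences, again in capitals, of which 25 are on last bases of codons.
Tmsb4x: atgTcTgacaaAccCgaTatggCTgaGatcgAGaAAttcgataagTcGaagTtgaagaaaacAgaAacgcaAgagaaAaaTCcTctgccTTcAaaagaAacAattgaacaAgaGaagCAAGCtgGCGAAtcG
Tmsb10: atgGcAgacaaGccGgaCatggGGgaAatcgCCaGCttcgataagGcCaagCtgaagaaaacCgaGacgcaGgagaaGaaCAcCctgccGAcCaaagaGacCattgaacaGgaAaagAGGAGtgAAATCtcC
Of all 50-base stretches of the transcripts of a gene, 37.4% of those of Actg1, 27.02% of Tmsb10, 25.1% of Vcl, 18.3% of Cfl1, 9.12% of Actb and 1.79% of Wdr1 also occur in transcripts of another gene, so counts of these 6 genes are uncertain to that extent. For Vcl these stretches lie in Ap3m1 and for Cfl1 partly in Snx32, neighbours that overlap them on the opposite strand. No stretch of Tmsb4x, Cnn2, Pfn1 or Flna is shared (0%). Little of this sharing lies within the pairs: Actb and Actg1 have 30 stretches in common, and the thymosins none. Most shared stretches of Actg1 occur in Gm12715 (973) or Gm8399 (677), those of Actb in Lrrc58 (179) and those of Tmsb10 in Gm9844 (265).

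The motif that SRF binds, the CArG box, was searched on both strands in the 300 bases around each start site (250 before and 50 after, RefSeq, build GRCm38.p6). It stood in 3 of the 9 members with a listed promoter and in 535 of 32851 promoters in all (1.63%). Actb has no entry in that table. A stretch of each of the 3 promoters is shown 5′ to 3′ on the strand of the gene, with the box in capitals.
Actg1: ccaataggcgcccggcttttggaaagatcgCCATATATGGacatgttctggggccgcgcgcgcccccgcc
Cnn2: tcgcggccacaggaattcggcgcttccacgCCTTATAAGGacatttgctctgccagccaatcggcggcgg
Vcl: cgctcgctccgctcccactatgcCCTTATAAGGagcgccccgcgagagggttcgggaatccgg
They lie at chr11:120348546-120348615 on the minus strand, chr10:79988514-79988583 on the plus strand and chr14:20929148-20929210 on the plus strand. The box begins 90 bases before the start site in Actg1, 56 in Cnn2 and 227 in Vcl. A match of letters is a description and not a measured binding site. Among 13 other genes known as SRF or MRTF targets with a listed promoter, 4 held the box (Fhl2, Lima1, Myl9 and Srf).

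Genes can be ranked against each other only per length, here as CPM per kb of annotated exon over the 48 libraries of a region. This length joins the exons of all annotated transcripts of a gene, so it can exceed that of the transcripts present. The order between genes depends on this choice, and other lengths were not tried. Averaged over all mice, Tmsb4x stood at 348 ± 96.2 (mean ± SD, PFC) and 486 ± 158 (NAc), and Actb at 304 ± 23.1 and 317 ± 23.2, but in the PFC their order differed between XX and XY mice. In XX mice of the PFC, Actb was first at 284 ± 9.30 and Tmsb4x came after it at 251 ± 15.7, with Tmsb4x above Actb in 1 of 23 libraries. In XY mice of the PFC, Tmsb4x was first at 436 ± 28.2, above Actb at 323 ± 12.9 in 25 of 25 libraries. In the NAc, Tmsb4x was above Actb in 18 of 23 XX and 25 of 25 XY libraries, with means of 336 ± 41.3 against 302 ± 17.9 in XX mice. Cfl1 came next with 242 ± 11.5 in the PFC and 184 ± 12.5 in the NAc, then Actg1 with 98.2 ± 7.97 and 79.1 ± 10.4. Among all 19795 annotated genes, by the mean over all mice, Tmsb4x ranked 34 in the PFC and 15 in the NAc, Actb 39 and 25, Cfl1 73 and 86, and Actg1 286 and 322. Tmsb10 (57.7 ± 7.50 and 62.4 ± 7.93) lay below its relative Tmsb4x and in the NAc overlapped Actg1 in range, and Pfn1 below both (28.5 ± 1.54 and 24.8 ± 2.08). Wdr1 and Flna changed places between the regions, at 18.7 ± 1.10 and 7.62 ± 1.15 CPM per kb in PFC libraries against 12.8 ± 1.27 and 13.4 ± 3.12 in NAc libraries, where they did not differ beyond their spread. Vcl was at 4.92 ± 0.364 and 7.33 ± 0.679, and Cnn2 was the lowest of the 10 in both regions at 2.03 ± 0.439 and 1.18 ± 0.247.

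**Figure D1:**
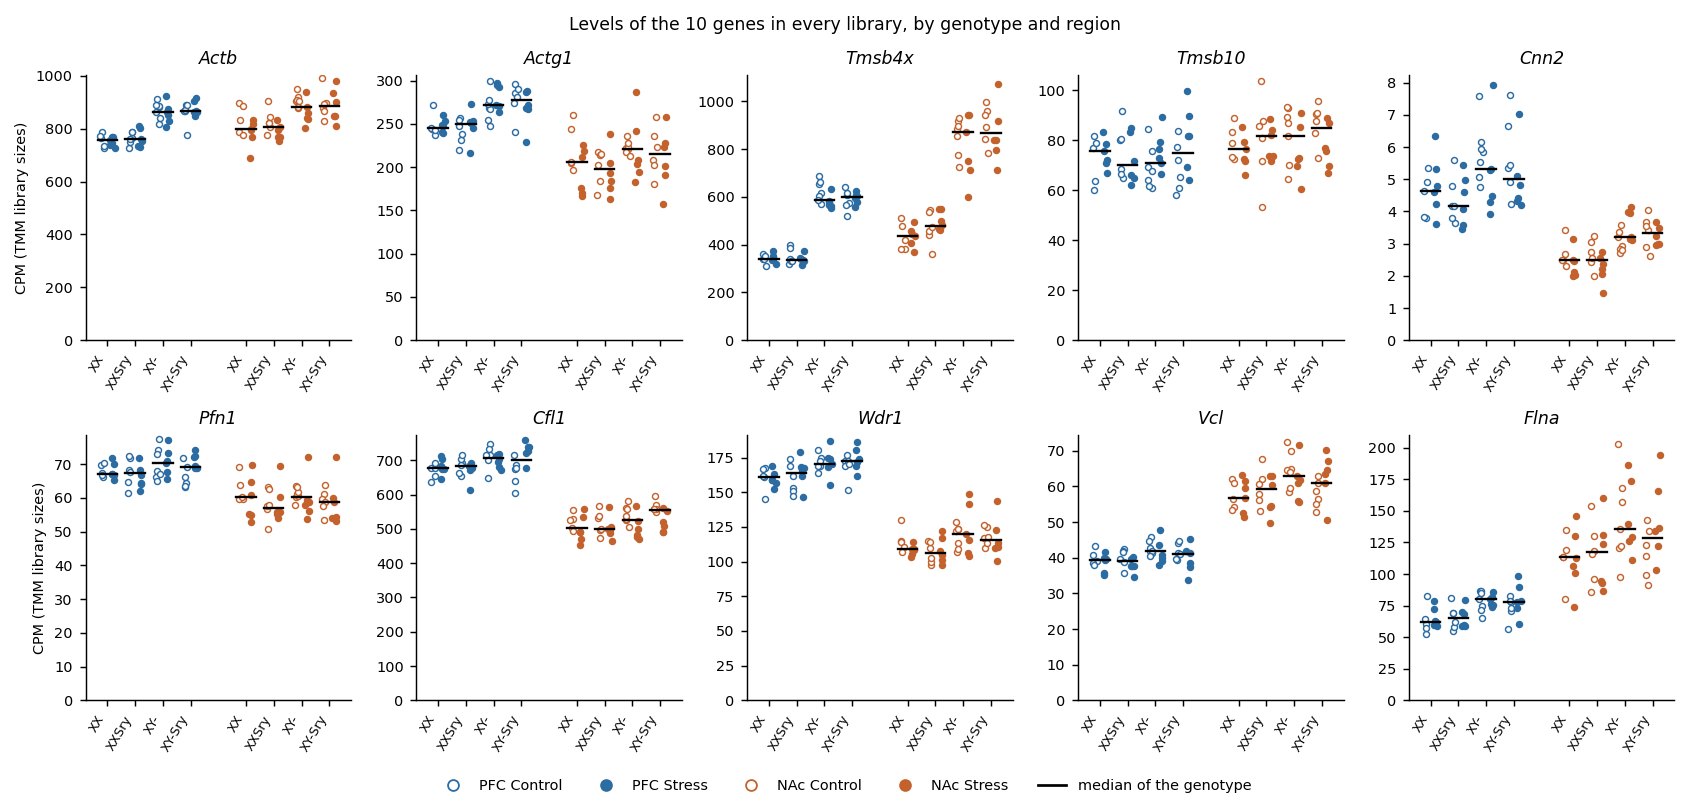
Level of each of the 10 genes in every library, as CPM on an axis that starts at 0, for the 4 genotypes in the PFC (blue) and then the NAc (orange), with Control animals as open and Stress animals as filled points and a black line at the genotype median. Tmsb4x separates the XX from the XY genotypes completely in both regions, and Actb separates them in most PFC libraries.

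Both actins had lower values in XX mice, Actb in both regions and Actg1 mainly in the PFC. In the PFC, Actb ranged from 726 to 789 CPM, with a median of 759 in 11 XX mice, and from 727 to 811 CPM, with a median of 761 in 12 XXSry mice. In 13 XY- mice it ranged from 806 to 923 CPM, with a median of 864, and in 12 XY-Sry mice from 775 to 917 CPM, with a median of 867. The genotypes thus fell into pairs by chromosomes and not by gonads: 18 of 23 XX mice lay below the lowest XY mouse and 23 of 25 XY mice above the highest XX mouse. The means were 759.6 ± 24.9 and 866 ± 34.6 CPM (SD, n = 23 and 25), and the log2 difference XX minus XY in the edgeR fit was -0.18 (SE 0.017), a change of -11.8%. In the NAc the same gene ranged from 690.1 to 904 CPM, with a median of 805 in XX mice and from 803 to 990.1 CPM, with a median of 881 in XY mice. There 11 XX mice lay below every XY mouse and 8 XY mice above every XX mouse, and the log2 difference was -0.13 (SE 0.027), a change of -8.50%.

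Actg1 in the PFC ranged from 217 to 273 CPM, with a median of 247 in XX mice and from 229 to 300.04 CPM, with a median of 273 in XY mice. Of the XY mice, 12 of 25 stood above every XX mouse, and the log2 difference was -0.14 (SE 0.024). NAc values overlapped almost fully, at 202 ± 26.1 and 218 ± 27.4 CPM, with a log2 difference of -0.076 (SE 0.053) and a 95% interval from -0.18 to 0.030. Actb divided by Actg1 of the same PFC library came to 3.09 ± 0.123 in XX and 3.17 ± 0.191 in XY mice. For NAc libraries it was 4.05 ± 0.384 and 4.12 ± 0.413, so it differed between XX and XY mice by less than 1 SD in each region.

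Of the monomer binders, Tmsb4x differed most between XX and XY mice, and its relative Tmsb10 hardly at all. Tmsb4x in the PFC ranged from 309 to 373 CPM, with a median of 342 in XX, from 316 to 397 CPM, with a median of 337 in XXSry, from 553 to 689 CPM, with a median of 588 in XY- and from 519 to 642 CPM, with a median of 599 in XY-Sry mice. In the NAc the ranges were 369 to 509.7 CPM, with a median of 438 in XX, 359 to 549 CPM, with a median of 478 in XXSry, 601 to 944 CPM, with a median of 870.3 in XY- and 713 to 1074 CPM, with a median of 867 in XY-Sry mice. All 23 XX mice lay below all 25 XY mice in both regions, a gap found for 0.114% of all PFC genes and 0.0864% of all NAc genes, and Tmsb4x was the only one of the 10 genes with such a gap. PFC libraries gave a log2 difference of -0.78 (SE 0.026) and NAc libraries one of -0.92 (SE 0.052), changes of -41.6% and -47.2%. The other 6 genes listed as lying on the reported translocated piece were called lower in XX mice in both regions, with median log2 differences of -0.996 (PFC) and -1.02 (NAc). Among them were the X-linked genes Msl3 at -1.01 (SE 0.022) and -1.06 (SE 0.041), and Prps2 at -1.01 (SE 0.024) and -1.01 (SE 0.048).

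Tmsb10, on chromosome 6, averaged 73.6 ± 8.59 and 73.7 ± 10.6 CPM in XX and XY mice of the PFC, with a log2 difference of 0.0073 (SE 0.055) and a 95% interval from -0.10 to 0.12. In the NAc the values were 78.4 ± 9.93 and 80.6 ± 10.4, and the difference was -0.047 (SE 0.056). The balance of the 2 thymosin transcripts therefore differed: Tmsb4x was 4.73 ± 0.533 times Tmsb10 in XX mice and 8.26 ± 1.17 times in XY mice of the PFC, and 5.92 ± 0.762 and 10.7 ± 1.15 times in the NAc (CPM ratio, not per length). Pfn1 averaged 67.5 ± 3.03 and 69.6 ± 4.02 CPM in PFC libraries, against 59.6 ± 5.28 and 59.7 ± 4.83 in the NAc. Its log2 differences were -0.041 (SE 0.022) and 0.013 (SE 0.037), the second with a 95% interval from -0.062 to 0.088.

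The severing pair showed small differences. Cfl1 ranged from 612 to 714 CPM, with a median of 678 in XX and from 603 to 759 CPM, with a median of 705 in XY mice of the PFC, and its log2 difference was -0.036 (SE 0.017) there and -0.054 (SE 0.027) in the NAc. Wdr1 ranged from 145 to 179 CPM, with a median of 162 in XX and from 151 to 187 CPM, with a median of 172 in XY mice of the PFC, a log2 difference of -0.081 (SE 0.021). In the NAc, Wdr1 ranged from 97.4 to 129.9 CPM, with a median of 109 in XX and from 101 to 149 CPM, with a median of 117 in XY mice, a log2 difference of -0.12 (SE 0.038). The groups overlapped for both genes: in each region 3 or 4 XX mice had less Wdr1 than every XY mouse.

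Cnn2, the filament-binding calponin, had the largest relative difference after Tmsb4x. It ranged from 3.47 to 6.34 CPM, with a median of 4.596 in XX and from 3.91 to 7.93 CPM, with a median of 5.30 in XY mice of the PFC, and from 1.45 to 3.41 CPM, with a median of 2.49 in XX and from 2.61 to 4.13 CPM, with a median of 3.21 in XY mice of the NAc. Separation was clearer in the NAc, where 16 of 23 XX mice lay below the lowest XY mouse, against 7 in the PFC. PFC libraries gave a log2 difference of -0.32 (SE 0.074) and NAc libraries one of -0.43 (SE 0.070), changes of -20.0% and -25.9%.

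Of the linkers, X-linked Flna ranged from 52.5 to 82.3 CPM, with a median of 62.3 in XX and from 56.2 to 98.7 CPM, with a median of 77.9 in XY mice of the PFC. In the NAc it ranged from 73.6 to 160.3 CPM, with a median of 114 in XX and from 91.0 to 203 CPM, with a median of 134 in XY mice. The log2 differences were -0.26 (SE 0.057) and -0.22 (SE 0.093), so Flna was lower in the mice with 2 X chromosomes, but its spread was wide, with 95% intervals from -0.37 to -0.14 and from -0.41 to -0.031. Vcl averaged 39.1 ± 2.37 and 41.4 ± 3.06 CPM in XX and XY mice of the PFC, against 58.05 ± 4.67 and 61.9 ± 5.76 in the NAc, with log2 differences of -0.098 (SE 0.029) and -0.083 (SE 0.038).

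In all, 9 of the 10 genes had a negative difference in each region, and their medians were -0.12 (PFC) and -0.10 (NAc) against 0.00094 and -0.00021 over all genes tested. At an adjusted p below 0.05, 6 were called in the PFC (Actb, Actg1, Tmsb4x, Cnn2, Flna and Wdr1), where 1.12% of 19292 genes were called and 0.845% were called lower in XX mice. In the NAc 3 were called (Actb, Tmsb4x and Cnn2), where 0.584% of 19684 genes were called and 0.508% lower. Since this contrast chose the genes, nothing is read from these counts. Wdr1 was near the threshold and was called in 26 of the 48 fits that each left out 1 PFC library.

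The same difference was also taken within each gonad type. The libraries are those that chose the genes, so the values of the pairs are a description. With ovaries (XX minus XY-) and with testes (XXSry minus XY-Sry), the log2 differences in the PFC were -0.20 and -0.17 for Actb, -0.15 and -0.12 for Actg1, -0.82 and -0.74 for Tmsb4x, and -0.28 and -0.23 for Flna. Cnn2 was at -0.25 and -0.40 in the PFC and at -0.42 and -0.44 in the NAc. NAc values were -0.13 and -0.13 for Actb and -0.94 and -0.90 for Tmsb4x. The widest gap between the pairs was in Flna of the NAc, -0.34 (SE 0.13) with ovaries and -0.092 (SE 0.13) with testes. The interaction of chromosomes and gonads, tested by edgeR, called 0 of the 10 genes and 0% of all genes in either region, with 839 PFC genes and 559 NAc genes at an unadjusted p below 0.05. No member had an unadjusted p below 0.05 (0 of 10), and the lowest adjusted p was 0.994 in the PFC and 1 in the NAc.

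**Figure D2:**
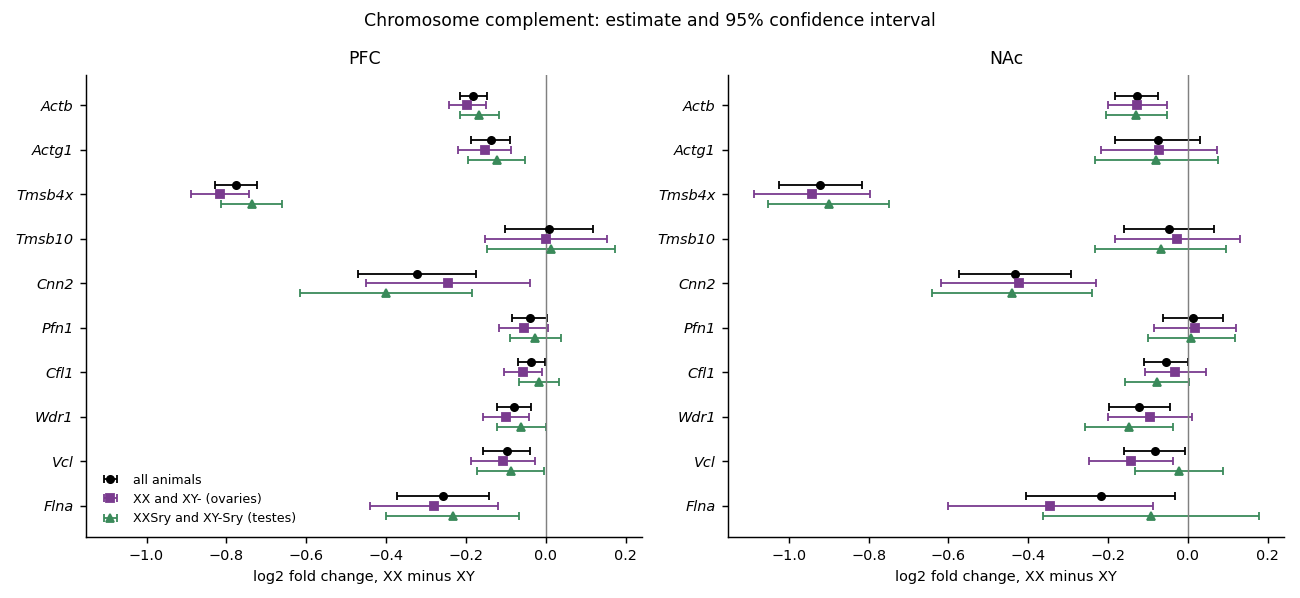
Log2 difference XX minus XY of each gene with its 95% interval, for all animals (black circles), for the pair with ovaries (purple squares) and for the pair with testes (green triangles), in the PFC and the NAc. Tmsb4x stands far to the left of the other genes, at -0.78 and -0.92, and the intervals of the gonad pairs overlap for every gene.

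Within the 3 cohorts the PFC differences in cohorts 1, 2 and 3 were -0.18, -0.17 and -0.26 for Actb, -0.087, -0.21 and -0.21 for Actg1, -0.73, -0.79 and -0.81 for Tmsb4x, -0.39, -0.41 and -0.15 for Cnn2 and -0.31, -0.20 and -0.31 for Flna. In the NAc they were -0.088, -0.13 and -0.19 for Actb, -0.98, -0.98 and -0.84 for Tmsb4x, -0.37, -0.29 and -0.73 for Cnn2, -0.065, -0.30 and -0.23 for Flna and -0.14, -0.023 and -0.25 for Wdr1. All of these kept the sign of the pooled value. The genes were chosen by that difference in these same libraries, so a shared sign was likely in advance and nothing is read from it. Of the 10 genes, 1 did not keep its sign over the cohorts in the PFC, and 3 did not in the NAc. They were Tmsb10 in the PFC at -0.0057, 0.23 and -0.094, and in the NAc Tmsb10 at -0.031, -0.23 and 0.085, Pfn1 at 0.049, -0.053 and 0.020 and Cfl1 at -0.083, -0.069 and 0.00071. XX and XY mice were spread unevenly over the cohorts, with a larger share of the XX mice in cohort 1. Genotypes or groups weighed equally within a cohort, so single animals can carry much of a value. The only XXSry animal of cohort 3 was replicate 21, and the only XY-Sry Control animal of cohort 1 was replicate 38. Printed means, ranges, medians, ratios and counts of mice are not adjusted for cohort, unlike the edgeR differences.

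Markers of other cells also differed between XX and XY mice of the PFC. Of 14 microglial markers, 3 were called lower in XX mice and 1 higher, where 1.12% of all PFC genes were called and 0.845% called lower. Ctss was at -0.34 (SE 0.065), Siglech at -0.20 (SE 0.041) and C1qc at -0.20 (SE 0.052), and Fcrls, the higher one, at 0.29 (SE 0.049). Their summed level was 456 to 575 CPM in XX mice (median 515) and 446 to 783 in XY mice (median 534). Of 9 markers of meninges and fibroblasts none was called by edgeR (0), with 4 at an unadjusted p below 0.05, but all 9 lay below 0 with a median of -0.23, and their summed level was 49.3 to 135 CPM in XX mice (median 77.8) and 45.3 to 205 in XY mice (median 87.6). In the NAc 0 of the 14 microglial markers were called by edgeR, with 4 at an unadjusted p below 0.05, and their sum was 419.6 to 536 CPM in XX mice (median 471) and 378 to 777 in XY mice (median 494). In the PFC, 1 of 10 markers was called lower in each of 3 further lists: Slc2a1 of endothelium at -0.15 (SE 0.037), Gja1 of astrocytes at -0.099 (SE 0.026) and Drd2 of striatal projection neurons at -0.65 (SE 0.14). Their lists summed to 277 to 354 CPM in XX mice (median 315) and 284 to 397 in XY mice (median 332), 4616 to 5896 CPM in XX mice (median 4924) and 4168 to 5838 in XY mice (median 4940.1), and 211 to 263 CPM in XX mice (median 231) and 207 to 337 in XY mice (median 241), in that order. No marker of these lists was at 0 in all libraries. Drd2 was near the floor in the PFC, though, at a mean of 0.576 CPM in XX and 0.840 CPM in XY mice. The PFC lists of smooth muscle and pericytes, oligodendrocytes, neurons, cortical excitatory neurons, blood cells and choroid plexus held no called marker. The part of these cells in the differences of the members was not tested beyond the covariates below. In bulk tissue, fewer cells of a type and less RNA per cell cannot be told apart.

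With the summed levels of cortical excitatory, microglial and meningeal markers as covariates, an alternative chosen after seeing the data, the PFC differences were -0.17 for Actb, -0.13 for Actg1, -0.79 for Tmsb4x and -0.24 for Flna, close to the values without them. Cnn2 went from -0.32 to -0.19 and Vcl from -0.098 to -0.062 there. In the NAc, Cnn2 was at -0.41, Actb at -0.13 and Tmsb4x at -0.92 with the covariates.

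Of the actin genes outside the 10, a few were called lower in XX mice of the PFC and none in the NAc. Of 138 genes listed by 11 roles, from muscle actins to non-muscle myosin II, 133 were in the files. In the PFC 6 of 132 tested were called lower in XX mice and 0 higher (4.55%, where 0.845% of all PFC genes were called lower), with 90 below 0 and a median of -0.015. DESeq2 called 10 and limma-voom 5, and 3 remained with the marker covariates. Over all PFC genes the calls in either direction were 217 by edgeR, 356 by DESeq2, 172 by limma-voom and 131 with the covariates. Those called lower went from 163 to 77 with the covariates, so the actin genes were not alone in losing calls. The 6 were Gmfg at -0.55 (SE 0.12) and Gsn at -0.15 (SE 0.036), both of filament turnover, the capping proteins Capzb at -0.059 (SE 0.014) and Capg at -0.36 (SE 0.098), the cross-linker Lcp1 (plastin 2, known from white blood cells) at -0.25 (SE 0.049) and the tropomyosin Tpm4 at -0.13 (SE 0.031), whose counts are uncertain because antisense genes overlap it. Several of them, Gmfg, Capg and Lcp1, are known for expression in immune cells, and the microglial values above stand beside them. The part of those cells in these calls was not tested for each gene. Gmfg was near the floor in the PFC, at a mean of 0.643 CPM in XX and 0.961 CPM in XY mice. Capg was low as well, at 1.01 and 1.28 CPM, and close to the threshold, with an adjusted p of 0.0494 in edgeR.

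In the NAc 0 of 133 of these genes were called by edgeR, DESeq2 or limma-voom, with 15 at an unadjusted p below 0.05, 71 below 0 and a median of -0.0068. The values there were -0.28 (SE 0.13) for Capg, -0.19 (SE 0.076) for Lcp1, -0.11 (SE 0.045) for Tpm4 and -0.11 (SE 0.038) for Dstn, a relative of cofilin. None of the 10 subunits of the Arp2/3 complex, which starts branches on filaments, was called in the PFC (0, with 1 at an unadjusted p below 0.05). Arpc1b was at -0.18 (SE 0.052), with counts that are uncertain because a gene on the opposite strand overlaps it. Likewise 0 of 9 other monomer binders were called in either region, with 1 and 1 at an unadjusted p below 0.05, and Cap2 had values of 0.074 (SE 0.024) and 0.059 (SE 0.029). Of 16 focal adhesion genes 15 lay below 0 in the PFC and none was called (0, with 6 at an unadjusted p below 0.05), with Itgb1 at -0.082 (SE 0.023) and Msn at -0.15 (SE 0.044).

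Of 16 other known SRF and MRTF targets, 14 lay below 0 in the PFC with a median of -0.095, and 2 were called lower, Tgfb1i1 at -0.26 (SE 0.047) and Tpm4. Of all PFC genes, 0.845% were called lower. In the NAc 8 of the 16 lay below 0, the median was -0.00052, and none was called (0, with 2 at an unadjusted p below 0.05). The factors themselves were not called: Srf was at -0.086 (SE 0.037) in the PFC, and Mrtfa at -0.037 (SE 0.031) and 0.072 (SE 0.061) (PFC and NAc). A gene on the opposite strand overlaps Mrtfa, so its counts are uncertain too. The 3 members with a CArG box had differences of -0.14 (SE 0.024) (Actg1), -0.32 (SE 0.074) (Cnn2) and -0.098 (SE 0.029) (Vcl) in the PFC, given as a description. Members with a listed promoter but no box ran from -0.78 (Tmsb4x) to 0.0073 (Tmsb10) there, a range that holds all 3. The part of SRF in these differences was not tested.

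**Figure D3:**
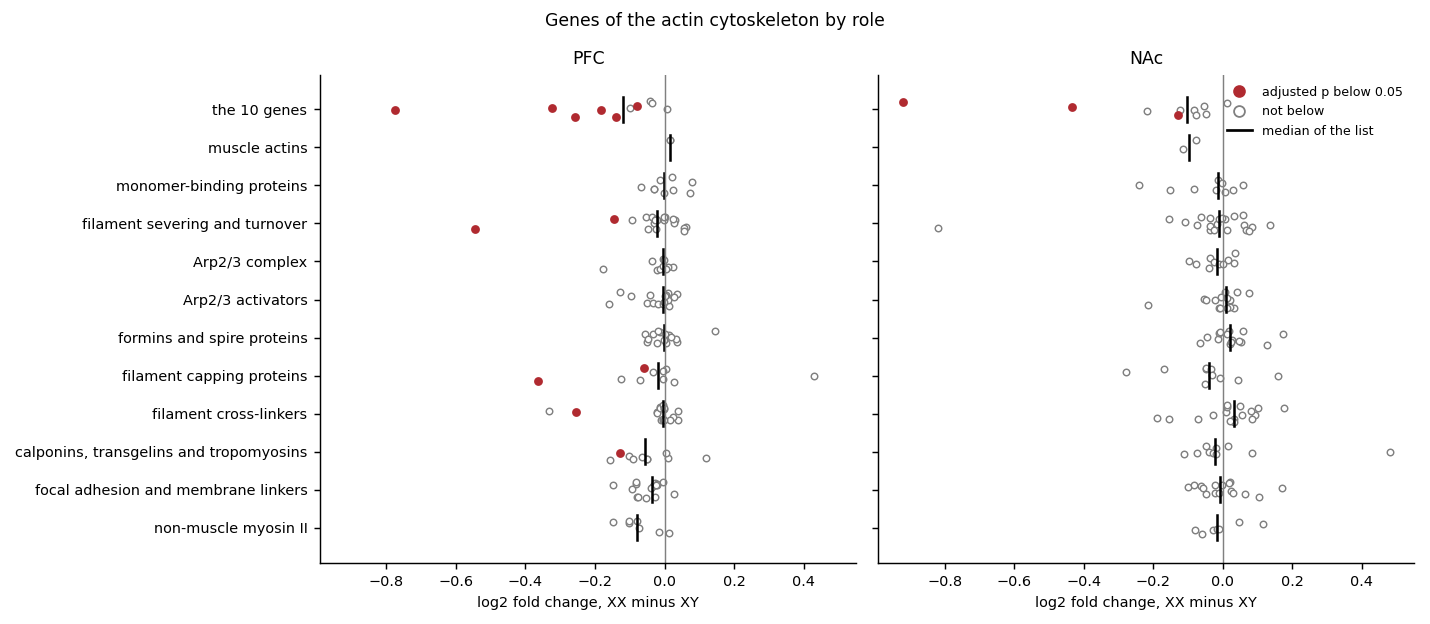
Log2 difference XX minus XY of the 10 genes and of the genes in 11 lists by actin role, 1 point per gene, in the PFC and the NAc, with genes at an adjusted p below 0.05 in red, others in white and a black bar at each median. The lists centre near 0, and the points with the most negative values among the 10 genes belong to Tmsb4x.

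None of the 10 genes passed the test for stress (0). In the PFC the log2 differences Stress minus Control ran from -0.080 for Cnn2 to 0.11 for Tmsb10, 0 of 10 passed the test of edgeR, DESeq2 or limma-voom, none had an unadjusted p below 0.05 (0 of 10), and the lowest adjusted p was 0.874. Over all PFC genes edgeR called 0%, with 1105 at an unadjusted p below 0.05, DESeq2 called 2 genes and limma-voom 0. Actb in the PFC ranged from 726 to 912 CPM, with a median of 804 in 24 Control animals and from 729 to 923 CPM, with a median of 809 in 24 Stress animals, almost the same range, and the 95% interval of its log2 difference went from -0.041 to 0.031. Tmsb10 ranged from 57.97 to 91.6 CPM, with a median of 69.0 in Control and from 62.0 to 99.7 CPM, with a median of 74.3 in Stress animals, with an interval from -0.0064 to 0.23.

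In the NAc the differences ran from -0.12 for Actg1 to 0.049 for Flna, with 7 of 10 below 0. Again 0 of 10 passed with edgeR, DESeq2 or limma-voom, against 0% of all genes (903 at an unadjusted p below 0.05, and 2 called by DESeq2), and 3 had an unadjusted p below 0.05. These were Cfl1, Actb and Actg1, each with an adjusted p of 0.997. Cfl1 ranged from 474 to 597 CPM, with a median of 538 in Control and from 454 to 566 CPM, with a median of 498 in Stress animals, and its difference was -0.091 (SE 0.030). Actb averaged 869 ± 54.0 and 830.4 ± 64.9 CPM, a difference of -0.060 (SE 0.028), and Actg1 averaged 216 ± 22.2 and 204 ± 31.8, a difference of -0.12 (SE 0.056). Stress and Control animals overlapped in every gene. The cohorts were uneven between the treatments, with 10 Control and 2 Stress animals in cohort 2 and 3 and 10 in cohort 3. Within cohorts 1, 2 and 3 the values were -0.11, -0.080 and -0.099 for Cfl1, -0.090, 0.051 and -0.012 for Actb and -0.21, 0.064 and -0.0098 for Actg1, so Actb and Actg1 had the opposite sign in cohort 2. Of the 133 other actin genes of the lists, 0 were called for stress in either region by edgeR, DESeq2 or limma-voom, with 3 in the PFC and 7 in the NAc at an unadjusted p below 0.05.

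The response to stress did not differ detectably between the regions or the genotypes. For Cfl1 the region term (NAc minus PFC of the stress difference) was -0.11 (SE 0.034), for Actg1 -0.14 (SE 0.060) and for Tmsb10 -0.23 (SE 0.097). These 3 had an unadjusted p below 0.05 in edgeR, but 0 of 10 passed the adjustment, as did 0% of all genes (989 at an unadjusted p below 0.05), and the lowest adjusted p was 0.956. Within single genotypes 0 of 10 genes were called in each of the 8 comparisons by edgeR, and 0% of all genes, with 491 to 1762 genes at an unadjusted p below 0.05. Unadjusted p below 0.05 occurred for Tmsb4x in XY- mice (-0.11) and for Pfn1 (0.096), Cfl1 (0.11) and Tmsb10 (0.27) in XY-Sry mice of the PFC. In the NAc they occurred for Actg1 in XX mice (-0.25), for Cnn2 (0.27) and Cfl1 (-0.12) in XY- mice and for Cfl1 in XY-Sry mice (-0.13). The interactions of stress with chromosomes and with gonads called 0 of 10 genes and 0% of all genes in each region by edgeR, with 578 to 1296 genes at an unadjusted p below 0.05. The only unadjusted p below 0.05 among these 4 tests was that of Cnn2 for stress by chromosomes in the NAc, at -0.30 (SE 0.13) with an adjusted p of 0.987.

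Gonads also left the 10 genes without a call. The comparison of testes with ovaries carries the Sry transgene along, since every animal with testes has it. In the PFC the log2 differences testes minus ovaries ran from -0.086 for Cnn2 to 0.019 for Tmsb10, where 0.0467% of all genes were called. None of the 10 was called by edgeR, DESeq2 or limma-voom or had an unadjusted p below 0.05 in edgeR (0 of 10), and the lowest adjusted p was 0.837. Actb averaged 814 ± 63.2 CPM with ovaries and 817 ± 61.6 with testes (n = 24 each), a difference of 0.014 (SE 0.016) whose 95% interval went from -0.019 to 0.046.

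In the NAc, where 0.0102% of genes were called, the differences ran from -0.050 for Pfn1 to 0.11 for Tmsb4x, and 0 of 10 passed with edgeR, DESeq2 or limma-voom. Tmsb4x alone had an unadjusted p below 0.05, with an adjusted p of 0.509 in edgeR. Its means were 434 ± 47.2 CPM in XX and 484 ± 55.6 in XXSry mice, and 831 ± 107 in XY- and 883 ± 101 in XY-Sry mice, so the mean with testes was the higher of each pair while the ranges overlapped. Within cohorts 1, 2 and 3 its difference was 0.22, -0.13 and 0.11, with the opposite sign in cohort 2. In cohort 3 the XXSry genotype rests on replicate 21 alone. Among the 133 other actin genes 0 were called in either region by edgeR, DESeq2 or limma-voom, with 7 in the PFC and 18 in the NAc at an unadjusted p below 0.05.

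**Figure D4:**
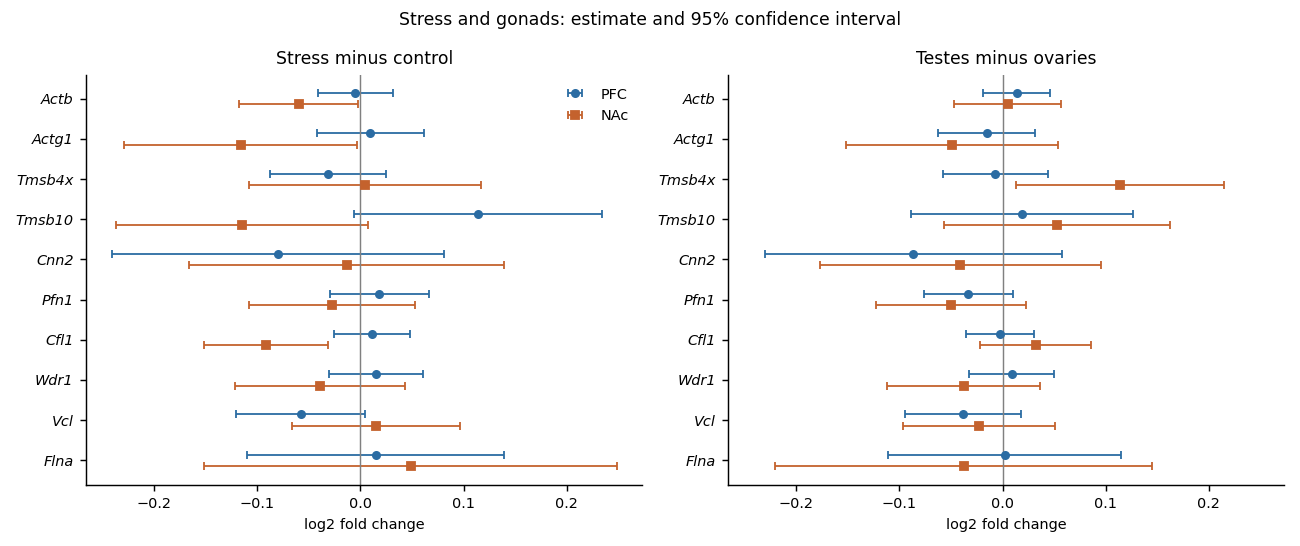
Log2 differences Stress minus Control and testes minus ovaries of the 10 genes with their 95% intervals, in the PFC (blue circles) and the NAc (orange squares). No gene passed the adjusted threshold in any of the 4 comparisons, and Cfl1 in the NAc lies at -0.091 for stress.

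Between the regions all 10 genes differed, and they split by role only in part. In a fit over 96 libraries with the animal as a block, edgeR called 5 higher and 5 lower in the NAc at an adjusted p below 0.05. So many genes differ between these tissues (86.6% of 19918 were called, 44.4% higher and 42.3% lower in the NAc) that the calls do not set the 10 apart. The linkers were higher in the NAc. Flna rose from 71.7 ± 10.8 CPM in the PFC to 126 ± 29.3 in the NAc (n = 48 each), higher in 48 of 48 animals, with a log2 difference of 0.79 (SE 0.047). Vcl rose from 40.3 ± 2.98 to 60.04 ± 5.56 CPM, also in 48 of 48 animals, with a log2 difference of 0.57 (SE 0.023), and its ranges in the 2 regions did not overlap.

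The severing pair was lower in the NAc. Cfl1 ranged from 603 to 759 CPM, with a median of 685 in the PFC and from 454 to 597 CPM, with a median of 524 in the NAc. No animal was higher in the NAc (0 of 48), the ranges did not overlap, and the log2 difference was -0.40 (SE 0.015). Wdr1 was also higher in the NAc in 0 of 48 animals and averaged 166 ± 9.80 and 114 ± 11.3 CPM, a log2 difference of -0.54 (SE 0.021). Ranges of the regions failed to overlap for 2 of the 10 genes, Cfl1 and Vcl, and for 16.4% of all genes.

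The actins went opposite ways. Actb was slightly higher in the NAc, 849.8 ± 62.3 against 815 ± 61.8 CPM, in 35 of 48 animals, a log2 difference of 0.062 (SE 0.015) with an adjusted p of 1.5e-04 in edgeR. Actg1 was lower, 210.2 ± 27.7 against 261 ± 21.2 CPM, in 46 of 48 animals, a log2 difference of -0.32 (SE 0.027). Among the monomer binders, Tmsb4x was higher in the NAc in 46 of 48 animals (0.46, SE 0.030) and Tmsb10 in 32 of 48 (0.11, SE 0.043, adjusted p of 0.0179 in edgeR), while Pfn1 was lower in 44 of 48 (-0.20, SE 0.020). Cnn2 fell most, from 4.997 ± 1.08 to 2.91 ± 0.608 CPM, in 47 of 48 animals, by a log2 difference of -0.78 (SE 0.055).

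These differences are relative to the scaling. With plain library totals in place of TMM the median over all genes moved from 0.020 to 0.16, and with it the 10 genes, Actb to 0.20, Pfn1 to -0.060 and Tmsb10 to 0.25. No sign changed and all 10 stayed called, and relative to the median of all genes Actb was at 0.041 and 0.042 and Pfn1 at -0.22 and -0.22 under the 2 scalings. The share of called genes that were higher in the NAc went from 51.2% to 62.0%. Markers of cell types differed between the regions as well: all 8 cortical excitatory markers were lower in the NAc (median -2.63), 10 of 10 oligodendrocyte markers higher (median 2.35), 9 of 9 meningeal markers lower (median -1.58), 10 of 10 general neuronal markers lower (median -0.93) and 10 of 14 microglial markers lower with 2 higher (median -0.14). The part of cell makeup in the differences of the 10 genes was not tested.

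**Figure D5:**
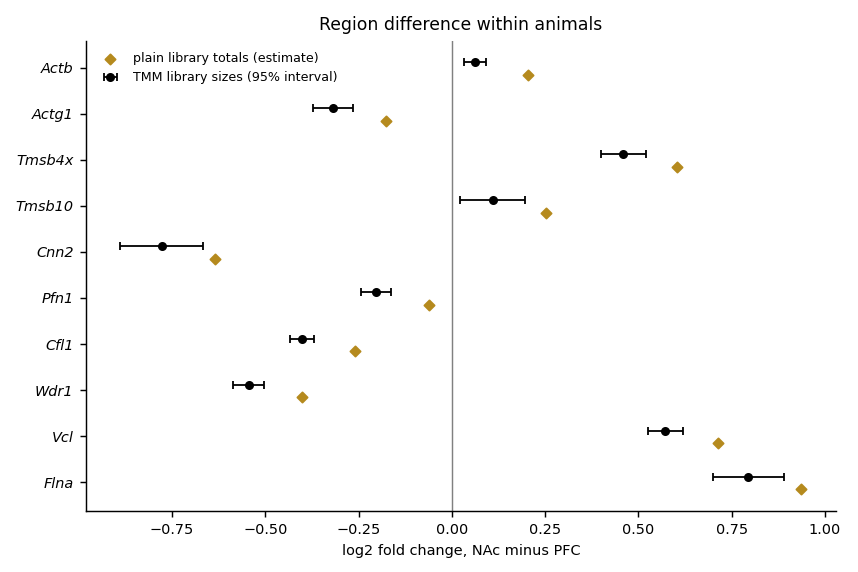
Log2 difference NAc minus PFC of the 10 genes with TMM scaling and its 95% interval (black) and with plain library totals (gold diamonds). The gold diamonds lie to the right of the black points by about the shift of the median of all genes, and no gene crosses 0.

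Of the other genes of the actin system, 80 of 133 were lower and 44 higher in the NAc (93.2%), with a median of -0.17. Over all genes 86.6% were called, 42.3% lower and 44.4% higher, with a median of 0.020, so being called does not set these genes apart. Of 21 other severing and turnover genes, 15 were lower and 4 higher, among them Coro1a at -1.45 (SE 0.037) and Gsn at 0.94 (SE 0.034). Of 17 cross-linkers 12 were lower and 4 higher, among them the spectrin Sptan1 at -0.72 (SE 0.017) and Actn4 at -0.91 (SE 0.024). The focal adhesion list, where Vcl belongs by role, was divided, with 7 of 16 lower and 8 higher: Zyx was at -1.36 (SE 0.049) and Ilk at 0.43 (SE 0.019). The Arp2/3 complex was divided as well, with 4 of 10 lower and 4 higher, Arpc3 at -0.40 (SE 0.023) and Arpc1a at 0.38 (SE 0.016). Non-muscle myosin II genes were lower in 5 of 7 and higher in 2, Myh9 at -0.73 (SE 0.026) and Myl12b at -0.57 (SE 0.016). The formin Fhod3 was the furthest below 0 of those named, at -2.40 (SE 0.057). Counts of Coro1a, Actn4, Zyx, Ilk and Fhod3 are uncertain because genes on the opposite strand overlap them. For comparison within the cytoskeleton, 10 of 11 tubulins were lower and 1 higher in the NAc, with a median of -0.72.

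How far the difference between XX and XY mice itself depended on the region is given without a test. The region term (NAc minus PFC of XX minus XY) was -0.14 (SE 0.063) for Tmsb4x, -0.12 (SE 0.11) for Cnn2, 0.062 (SE 0.055) for Actg1 and 0.052 (SE 0.030) for Actb, and from -0.059 to 0.051 for the others.

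Animals of the same group and cohort varied little in Actb and Cfl1. After the group and cohort fit the residual SD of log2 CPM in the PFC was 0.054 for both genes, against a median of 0.076 over 6079 genes, the 10 members and those whose mean log2 CPM reached 5. In the NAc it was 0.080 for Actb and 0.086 for Cfl1, against a median of 0.13. Flna (0.19 and 0.31) and Cnn2 (0.25 and 0.22) varied most.

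The genes most like Actb among animals were sought by the correlation of these residuals over the 48 libraries of a region, which share their library's depth, scaling and tissue makeup, so the values are descriptive. In the PFC the 5 genes with the highest Pearson r were Tubb3 (0.78), a neuronal tubulin, Dusp26 (0.76), Ddost (0.74), Gdap1l1 (0.73) and Sh3bp1 (0.73, uncertain because an antisense gene overlaps it), among 6078 genes compared, where the median was 0.063. In the NAc they were Ddost (0.83), Lamtor1 (0.83, overlapped on the opposite strand), Puf60 (0.82), Clptm1 (0.79) and Rab5c (0.79), among 6030, with a median of -0.095. Without the 2 libraries farthest from the median of Actb, r was 0.71 for Tubb3 in the PFC and 0.82 for Ddost in the NAc, and Spearman's rho over all 48 was 0.71 and 0.82.

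Among the members Actg1 was closest to Actb in both regions, at rank 31 in the PFC (0.66) and rank 16 in the NAc (0.76). Wdr1 followed in the PFC (rank 46, 0.65) but not in the NAc (rank 1777, 0.23), and Pfn1 followed in the NAc (rank 24, 0.74) but not in the PFC (rank 711, 0.45). Cfl1 had 0.41 in the PFC (rank 967) and 0.40 in the NAc (rank 1162). Tmsb4x, which had the largest difference between XX and XY mice, did not rise and fall with Actb among animals of a group: r was -0.067 in the PFC (rank 3862), and in the NAc it was negative, at -0.47 (rank 5097). Vcl, Tmsb10, Flna and Cnn2 lay between -0.14 and 0.14 in the PFC and between -0.17 and 0.30 in the NAc.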

How the data were processed

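RNA from PFC and NAc punches of the same 48 mice was sequenced as paired 50 bp reads, per the labels, giving 96 libraries. The deposited values are raw counts per gene, whole numbers without normalization, and the submitters' processing notes name FastQC 0.11.9, Trimmomatic 0.38, HISAT2 2.2.0, edgeR, DESeq2 and the build GRCm38. The counting tool, with its strand setting and its treatment of reads that match several genes, is not given in the sources used here. All deposited count columns were mapped to samples by the animal numbers in the titles, and 0 columns were left unused. Totals per library averaged 83.0 M (SD 8.48) in the PFC and 75.4 M (SD 12.6) in the NAc. The stated depth is about 45 M reads per library, and the sources do not say why the totals exceed it.

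Counts were tested with edgeR 4.0.16 (R 4.3.3), with TMM scaling, its filter on low counts and a quasi-likelihood fit of 8 group means and cohort within each region (19292 PFC genes and 19684 NAc genes). Adjusted p-values are Benjamini-Hochberg over all genes of a fit, with a threshold of 0.05. The comparison of regions took all 96 libraries and 19918 genes, and the animal was a block. The pairing comes from the titles, which give both regions of an animal the same number. As a check, deviations of an animal's libraries from their group means correlated with a median of 0.075 over 6022 genes, above 0.1 in 21 of 48 animals. The correlations ran from -0.26 to 0.62, and only 5 of 48 animals matched best with their own library of the other region. The check is therefore weak, and the pairing rests on the titles. Plotted and printed levels are CPM from TMM over all 96 libraries, with a prior count of 2 for log2 values. The fits were tested on simulated data.

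The 10 members and all gene lists were chosen with earlier results of these data known. All members are named. From each list, up to 4 called genes with the smallest p, or up to 2 where none was called, could be named. Genes like Actb are the 5 with the highest correlation of residuals among genes of at least 5 log2 CPM. Transcript sequences and shared 50-base stretches come from GENCODE M21, promoters from RefSeq.

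Alternatives were DESeq2 1.42.0, limma-voom (limma 3.58.1), DESeq2's size factors, plain library totals, no filter on low counts, at least 1 CPM in 5 libraries, no cohort term, each cohort alone, each library left out (96 refits) and no animal block. Summed marker levels as covariates were added after seeing the data.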

Additional observations from a re-analysis of the deposited data

Results flagged for a closer look

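In 9 of 160 sets of 5 to 7 libraries (1 gene in 1 genotype, treatment and region), or 5.62%, 1 library stood far from the rest of its group; chance gives about 1 in 20. PFC libraries account for 7 of them and NAc libraries for 2. The PFC library of XY-Sry Control replicate 33 was low in Actb, at 775 CPM where the other libraries of its group held 866 to 890.3, and in Wdr1, at 151 CPM where the others held 169 to 177. The PFC library of XY-Sry Stress replicate 7 was low in Actg1, at 229 CPM against 267 to 289, and high in Cnn2, at 7.01 CPM against 4.21 to 5.09. Actg1 was high in PFC XX Control replicate 29, at 272 CPM against 237 to 245. Cfl1 was low in PFC XXSry Stress replicate 4, at 612 CPM against 672 to 691. Cnn2 was high in PFC XY- Stress replicate 15, at 7.93 CPM against 3.92 to 5.32. Pfn1 was high in NAc XY- Stress replicate 32, at 72.1 CPM against 53.7 to 59.5, and in NAc XY-Sry Stress replicate 23, at 72.0 CPM against 53.1 to 59.95.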

How the results depend on the processing

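The difference between XX and XY mice chose the 10 genes, so counts of their calls for it only describe how the fits vary. Of the 10 genes, 6 were called between XX and XY mice in the PFC. Within cohorts 1, 2 and 3 the counts were 2, 1 and 1, and with marker levels as covariates, chosen after seeing the data, 3. In the NAc 3 were called, and 1, 1 and 1 within the cohorts; each cohort holds fewer samples. Leaving out 1 library at a time gave 5 to 7 calls in the PFC and 3 to 3 in the NAc. Wdr1 in the PFC was lost in 22 of these 48 fits, and Vcl was gained without PFC XY-Sry Stress replicate 49. For testes against ovaries, 0 were called in the PFC but 1 within cohort 2 (Flna, 0.22); the cause was not tested. Stress and gonads gave 0 to 0 calls when libraries were left out. Single values were judged by movement beyond 1 SD between replicates for XX minus XY, which has no test here, and by side of the threshold otherwise. So judged, 2880 of 2880 values without 1 library were unmoved, with 82 changes of sign. For XX minus XY this outcome was nearly fixed in advance, since 1 library of 48 can hardly move a difference by 1 SD. Wdr1 in the PFC thus counts as unmoved although its call was lost in 22 fits. Under the other alternatives 1835 of 1840 values were unmoved, 4 moved, 1 became called and 0 reversed, with 90 changes of sign. Of these changes of sign, 31 were for testes minus ovaries and 21 for stress minus control. Only a called value can count as reversed. Values for stress and gonads that stay far from the threshold count as unmoved whatever their sign, so that outcome was nearly fixed too. The 4 that moved were Cnn2 and Wdr1 in the NAc and Actb in the PFC, all within cohort 3, and Tmsb10 in the PFC within cohort 2.

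In the comparison of regions, without the replicate block 10 of 10 genes were called, as with the pairing of the animals, and the block changed no call of a member. Over all genes, 217 were called between XX and XY mice in the PFC, 356 by DESeq2, 131 with marker covariates, 135, 24 and 18 within the cohorts, and 152 to 293 without 1 library. In the NAc 115 were called, 70 by limma-voom, and 39, 18 and 15 within the cohorts. For gonads 9 were called in the PFC (DESeq2 17, cohort 2 alone 26) and 2 in the NAc (DESeq2 19; 68 without NAc XY-Sry Control replicate 33). For stress 0 were called, DESeq2 calling 2 in each region, and cohort 2 alone giving 2 and cohort 3 alone 3 in the PFC and 1 in the NAc. Cnn2 had the lowest level of the 10 genes in CPM per kb in both regions.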
